A study of Mus musculus with 2 samples.

Results

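Foxp3-detected T cells were T cells with at least 1 transcript (UMI, a molecule counted once) of Foxp3, the transcription factor that defines regulatory T cells (Tregs), and their RNA was compared between hashtags 1 to 4 and hashtags 5 and 6. They numbered 761 of 13771 T cells, in a library of 22960 barcodes. The library pooled CD4+ T cells of the spleen and of visceral adipose tissue (VAT). The strain was C57BL/6 Foxp3.Cre-YFP, in which the Foxp3 gene drives Cre and a fluorescent reporter in Tregs of every group, and the titles name Bmal1 wild-type and knockout (bmal1WT and KO) cells taken at zeitgeber time (ZT, hours after lights on) 0 and 12. Per the labels, the mice lived under a reverse light cycle, 34000 VAT and 32000 splenic cells were sorted, and the cells of every genotype, time and tissue were hashed apart from the others before pooling for single-cell 3′ RNA-seq (10x Genomics) as 1 expression library. The 2 tissues, 2 genotypes and 2 times make 8 combinations, while 10 hashtag names are listed and 6 were in use. The tag names are numbers and hold no tissue, genotype or time, so none of the tags was given a tissue, genotype or time, and the sources used here do not say how many mice were used or of what age. Members were selected on measured values: at least 500 genes, under 10% mitochondrial UMIs, a leading tag with at least 80% and at least 10 of the tag counts, at least 2 UMIs of Cd3e, Cd3d, Cd3g and Trac together, and at least 1 UMI of Foxp3. The pools of hashtags were themselves chosen from earlier results of these data. The values below therefore describe 1 library, with no test and no p-value, and hashtags of unknown origin were not treated as replicates.

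Tregs restrain immune responses through receptors such as CTLA-4 and the interleukin-2 receptor alpha chain, and through cytokines such as interleukin-10. In lymphoid organs many Tregs are resting cells that carry the homing receptor CCR7 and recirculate between blood and lymphoid tissue. VAT Tregs are known for another program, with PPARγ, GATA3, the interleukin-33 receptor ST2 (Il1rl1), KLRG1, CCR2, amphiregulin and interleukin-10, which is described in the literature in tissue Tregs more widely.

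The hashtag barcodes are shown because they alone link a cell to its source. Each antibody carries an oligonucleotide of which this stretch is read, and all bases are capitals because every base is part of the identity.
Hashtag 1: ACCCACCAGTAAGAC
Hashtag 2: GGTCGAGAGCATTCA
Hashtag 3: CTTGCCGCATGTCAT
Hashtag 4: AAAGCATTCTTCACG
Hashtag 5: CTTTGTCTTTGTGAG
Hashtag 6: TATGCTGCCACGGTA

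Hashtags 1 to 6 gave 213, 136, 124, 105, 92 and 91 members, 578 in hashtags 1 to 4 and 183 in hashtags 5 and 6. Their summed UMIs ran from 331392 in hashtag 6 to 898080 in hashtag 1, 2506235 and 668740 in the pools. The median member had 3280 UMIs in hashtags 1 to 4 and 3139 in hashtags 5 and 6. Ribosomal protein genes took a median of 22.9% of a member's UMIs in hashtags 1 to 4 and 32.5% in hashtags 5 and 6, and their part in the gene ratios was tried by another scaling given below. Mitochondrial UMIs took 2.10% and 2.24%. The expression and hashtag libraries shared 22952 barcodes.

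Arntl, which encodes Bmal1, the gene deleted in the knockout, had 16, 20, 3, 10, 8 and 8 UMIs in hashtags 1 to 6, or 17.8, 32.3, 5.82, 21.2, 23.7 and 24.1 CPM (UMIs per 1000000 of the hashtag's summed UMIs). The range over hashtags was wide and the counts were small, and the log2 ratio of hashtags 1 to 4 over 5 and 6 was -0.29 (-1.13 to 0.62). The sources used here do not say which exons the knockout lacks, and a 3′ count can lie outside them, so these values check no label. In Foxp3-undetected T cells Arntl stood at 20 and 14.3 CPM in the pools.

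Near the limits of the rule, 27 members had exactly 2 UMIs of the T cell genes, while 17 barcodes with Foxp3 had 1 and 6 had none. A leading tag share of 80 to 90% was found in 73 members, and 119 barcodes that met every other limit lay at 70 to 80%. In all, 860 barcodes met every limit except the tag share, with a median of 6896.5 UMIs. Their leading pair of tags came both from hashtags 1 to 4 in 455, both from hashtags 5 and 6 in 36, and from each pool in 369. No doublet caller was run. Barcodes with mixed tags were removed by the share limit, and pairs of cells with the same tag were not seen by it.

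Foxp3 was detected in a larger share of T cells in each of hashtags 1 to 4 than in either of hashtags 5 and 6. The shares were 8.24%, 9.5%, 7.53% and 8.88% in hashtags 1 to 4 and 2.57% and 2.72% in hashtags 5 and 6. As pools, 578 of 6845 T cells (8.44%, exact binomial 95% interval 7.80 to 9.13) and 183 of 6926 (2.64%, 2.28 to 3.05) had a Foxp3 UMI. The T cells differed in depth, with a median of 2866 UMIs in hashtags 1 to 4 and 3455 in hashtags 5 and 6. After thinning every T cell to 1500 UMIs, which left out 654 and 280 shallower cells, the shares were 4.47% (3.97 to 5.02) and 1.47% (1.20 to 1.79). Among 39 barcodes of other cell types with no T cell UMI (median 3722 UMIs), 1 had a Foxp3 UMI (2.56%), and 1 of 32 did after thinning (3.12%, 0.0791 to 16.2), an interval that holds the thinned shares of both pools. Free Foxp3 RNA as a source of members, in either pool, was not tested beyond this count. Every interval given covers counting error alone.

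**Figure D1:**
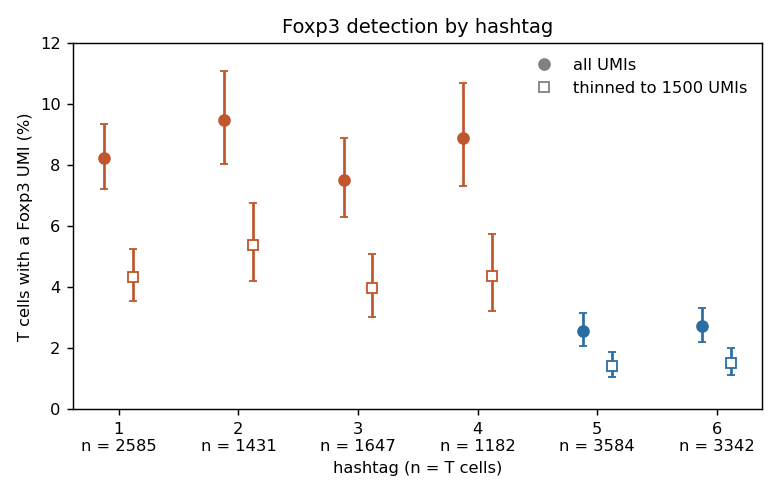
Share of T cells with a Foxp3 UMI (y axis, percent) in each hashtag (x axis, with the number of T cells), from all UMIs (filled) and after thinning each cell to 1500 UMIs (open); bars are exact binomial 95% intervals. Hashtags 1 to 4 lie between 7.53% and 9.5% and hashtags 5 and 6 at 2.57% and 2.72%.

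Most members rested on a single Foxp3 transcript: 648 of 761 had 1 Foxp3 UMI, 113 had 2 or more, and none had more than 3. Foxp3 itself, which the rule used, stood at 298, 252, 277 and 252 CPM in hashtags 1 to 4 and at 314 and 299 CPM in hashtags 5 and 6. The pools stood at 274 CPM (254 to 295, exact Poisson 95% interval) and 307 CPM (266 to 352), and these intervals overlapped. Cd4 stood at 145 CPM (130 to 161) and 151 CPM (123 to 184) in the pools, and Cd8a was at 0 in all 6 hashtags.

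Over all genes, 5561 had a mean of at least 20 CPM over the pools and were read. A gene was called higher in a pool when its CPM ratio was at least 2 and the hashtags of the pools did not overlap. By this rule 427 genes were higher in hashtags 1 to 4 (7.68% of those read) and 172 in hashtags 5 and 6 (3.09%), and the median log2 ratio of hashtags 1 to 4 over 5 and 6 was 0.07. A further 45 genes passed the ratio but overlapped. Scaled to the total without ribosomal and mitochondrial genes, the counts were 410 and 396 of 6778 genes, and the median moved to -0.12. The 172 genes higher in hashtags 5 and 6 all passed there, and 327 of the 427 did. Leaving out a hashtag of the smaller pool loosens the rule on overlap, and the counts became 524 and 240 without hashtag 5 and 540 and 260 without hashtag 6. Every log2 ratio below is hashtags 1 to 4 over hashtags 5 and 6 unless stated otherwise, with its exact 95% counting interval.

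Within the Treg core list, Il2ra, Ctla4, Tnfrsf18 and 3 other members were higher in hashtags 1 to 4 and 3 other members were higher in hashtags 5 and 6. Of 18 members, 16 were read, with a median log2 ratio of 0.55, 6 higher in hashtags 1 to 4 and 3 higher in hashtags 5 and 6. The alpha chain of the interleukin-2 receptor, Il2ra (CD25), stood at 266, 298, 283 and 489 CPM in hashtags 1 to 4 and at 145 and 166 CPM in hashtags 5 and 6. Hashtag 4 was the highest, and the pools did not overlap (log2 ratio 1.04, 0.74 to 1.35). Ctla4, which competes with CD28 for its ligands, stood at 511, 394, 337 and 489 CPM against 139 and 118 CPM (1.78, 1.46 to 2.12). Capg, an actin-capping protein, was higher by 1.58 (1.32 to 1.85), Tnfrsf18 (GITR) by 1.23 (0.98 to 1.49), the cytokine signalling inhibitor Socs2 by 1.39 and the guanine nucleotide exchange factor Swap70 by 1.06.

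Izumo1r, which encodes folate receptor 4, a surface marker of Tregs and other CD4 T cells, went the opposite way. It stood at 136, 87.1, 112 and 106 CPM in hashtags 1 to 4 and at 700 and 643 CPM in hashtags 5 and 6. Both hashtags of the second pool lay far above those of the first, 5.93-fold in the pools (log2 ratio -2.57, -2.79 to -2.35). After thinning to 1500 UMIs, Izumo1r was found in 14.4% of members of hashtags 1 to 4 (11.6 to 17.6) and 57.3% of those of hashtags 5 and 6 (49.7 to 64.7), or 30.1% and 73.2% without thinning. Barcodes of other cell types had it in 6.25% after thinning (0.766 to 20.8, 2 of 32), an interval that holds the share in hashtags 1 to 4, and in 17.9% without. The G protein-coupled receptor gene Gpr83 stood at 8.91, 16.1, 0 and 2.12 CPM against 29.6 and 51.3 CPM (-2.41, -3.34 to -1.51), on 19 and 27 UMIs, and 26.3% of the 19 came from 1 cell. Ikzf4, the transcription factor Eos, stood at 39.0, 29.0, 48.5 and 38.1 CPM against 80 and 75.4 CPM (-1.02, -1.52 to -0.51).

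Helios (Ikzf2), a transcription factor of thymus-derived and stable Tregs, had like summed levels: 1003, 748, 1007 and 838 CPM in hashtags 1 to 4 and 952 and 736 CPM in hashtags 5 and 6. The hashtags overlapped, and the log2 ratio was 0.11 (-0.03 to 0.24). Tnfrsf4 (OX40, 0.86) and Tnfrsf9 (4-1BB, 0.72) did not overlap between the pools but were under the 2-fold limit. Nrp1 (-0.49), Ikzf1 (-0.64), Runx1 (0.14) and Icos (0.39) were not called. Lrrc32 and Tigit were under the level limit.

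Genes of the tissue Treg program were higher in hashtags 1 to 4 in 18 of the 20 members read, of 25 listed, and none was higher in hashtags 5 and 6. The median log2 ratio was 3.60. This list, like the other lists and the pools, was chosen with earlier results of these data known, so its count describes that choice and is no separate support. Il1rl1, the receptor for interleukin-33, on which VAT Tregs depend, stood at 474, 539, 374 and 491 CPM in hashtags 1 to 4 and at 26.7 and 39.2 CPM in hashtags 5 and 6. The lowest hashtag of the first pool was far above the second pool, and the pools differed 14.4-fold (log2 ratio 3.85, 3.24 to 4.52). Areg, the tissue repair growth factor amphiregulin, stood at 1243, 1711, 652 and 1574 CPM against 32.6 and 30.2 CPM, a 41.4-fold difference (5.37, 4.76 to 6.06), and hashtag 3 was the lowest of the first pool. Klrg1, a receptor of terminally differentiated lymphocytes, stood at 553, 619, 508 and 518 CPM against 38.5 and 45.3 CPM (3.73, 3.19 to 4.32).

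The lineage factor Gata3 stood at 541, 666, 446 and 559 CPM in hashtags 1 to 4 and at 104 and 81.5 CPM in hashtags 5 and 6 (log2 ratio 2.58, 2.22 to 2.97). Pparg, the nuclear receptor that sets the VAT Treg program, was a gene of low level, at 40.1, 59.7, 44.6 and 42.3 CPM against 2.96 and 0 CPM. It rested on 116 UMIs against 1 UMI, so its ratio of 4.95 has a wide counting interval (2.45 to 10.27). Cyp11a1, the first enzyme of steroid synthesis, was alike, with 200 UMIs against 1 UMI (5.74, 3.24 to 11.05). Fgl2, a secreted suppressive protein, stood at 330, 402, 359 and 394 CPM against 26.7 and 30.2 CPM (3.69, 3.03 to 4.42).

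The chemokine gene Cxcl2 stood at 896, 1853, 537 and 1579 CPM in hashtags 1 to 4 against 8.89 and 15.1 CPM in hashtags 5 and 6, 99.3-fold in the pools (log2 ratio 6.63, 5.65 to 7.85). The inflammatory chemokine receptor Ccr1 (5.13) and the AP-1 factor Fosl2 (4.23) were also called, on 1 and 5 UMIs in hashtags 5 and 6. Batf (0.39) and Gzmb (0.50) were read but not called. Penk, Hpgds, Ccr8, Itgae and Dusp4 were under the level limit, and Itgae, an integrin of cells at epithelia, had 5 UMIs in hashtags 1 to 4 and 13 in hashtags 5 and 6.

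**Figure D2:**
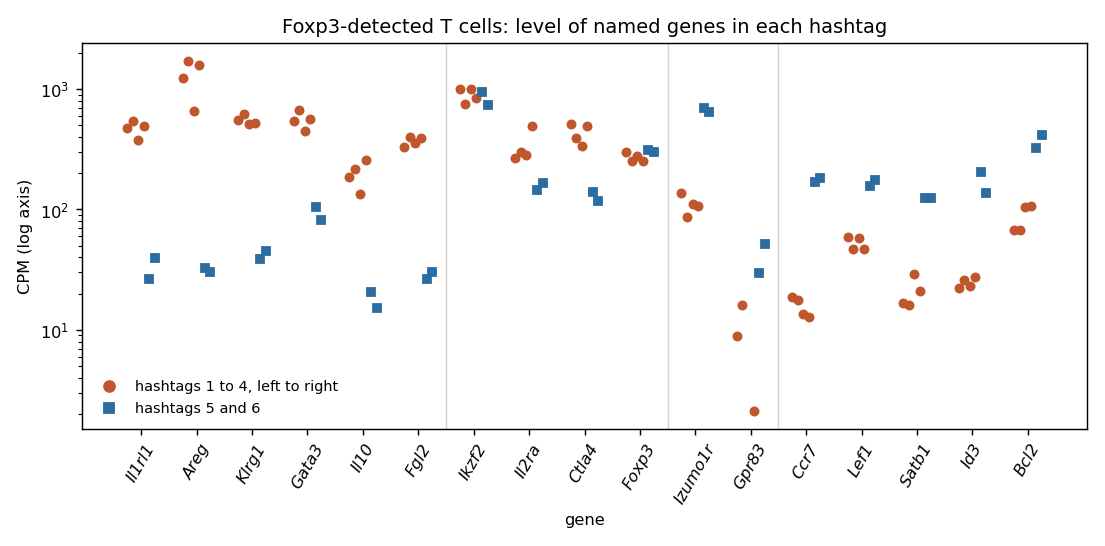
Level of 17 genes in the Foxp3-detected T cells of each hashtag (y axis, CPM, log axis), circles for hashtags 1 to 4 in order and squares for hashtags 5 and 6; Gpr83 was at 0 in hashtag 3 and has no point there. Tissue Treg genes such as Il1rl1 lie higher in hashtags 1 to 4, Ikzf2 overlaps, and Izumo1r and lymphoid genes such as Ccr7 lie higher in hashtags 5 and 6.

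Promoters were searched for the GATA motif GATAA, the AP-1 motif TGANTCA and the E-box CACGTG, on both strands. Those of Il1rl1 (the first listed) and Ccr3, higher in hashtags 1 to 4, and of Izumo1r, higher in hashtags 5 and 6, are printed, and each held a match. Among other promoters searched, those of Atf3 and Foxp3, the second of Il1rl1 and an Ipcef1 promoter held GATAA, and that of Gadd45b held CACGTG. The promoter of AA467197, higher in hashtags 1 to 4, held both CACGTG and TGANTCA. The promoters of Areg, Cxcl2 and Fos, higher in hashtags 1 to 4, and of Id3, Actn1 and Bcl2, higher in hashtags 5 and 6, held none of these motifs. The sequences are RefSeq's, build GRCm38.p6, from 250 bases before to 50 after the start, 5′ to 3′ on the gene's strand. Capitals mark matches on either strand.
Il1rl1, plus strand, chr1:40429320-40429619: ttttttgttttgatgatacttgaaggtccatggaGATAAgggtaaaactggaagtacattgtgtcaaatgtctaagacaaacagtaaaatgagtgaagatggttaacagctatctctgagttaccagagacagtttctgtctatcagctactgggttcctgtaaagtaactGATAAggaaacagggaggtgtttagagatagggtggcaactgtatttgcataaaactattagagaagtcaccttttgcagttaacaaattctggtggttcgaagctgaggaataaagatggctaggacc
Ccr3, plus strand, chr9:124021721-124022020: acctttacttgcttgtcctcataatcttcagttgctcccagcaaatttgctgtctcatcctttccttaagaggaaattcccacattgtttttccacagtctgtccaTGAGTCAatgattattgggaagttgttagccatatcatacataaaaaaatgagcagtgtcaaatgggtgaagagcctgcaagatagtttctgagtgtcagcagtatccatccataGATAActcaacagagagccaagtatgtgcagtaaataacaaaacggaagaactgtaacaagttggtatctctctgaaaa
Izumo1r, minus strand, chr9:14903718-14904017: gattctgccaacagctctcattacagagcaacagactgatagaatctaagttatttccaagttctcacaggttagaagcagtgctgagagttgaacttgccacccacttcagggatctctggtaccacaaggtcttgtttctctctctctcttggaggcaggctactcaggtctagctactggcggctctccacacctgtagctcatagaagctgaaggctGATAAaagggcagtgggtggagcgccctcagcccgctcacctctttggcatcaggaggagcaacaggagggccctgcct

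Of all 32851 promoters of this length, 25.4% held GATAA, 7.81% TGANTCA and 7.15% CACGTG. Over the genes read, of which 4453 of 5561 had an entry, the shares of promoters were 15.8%, 4.68% and 10.7%. In the tissue Treg list 18 of the 20 genes read had an entry, with GATAA in 17.4%, TGANTCA in 13% and CACGTG in 0 of their 23 promoters. In the lymphoid and quiescence list 17 of 20 had an entry, with GATAA in 17.9%, TGANTCA in 3.57% and CACGTG in 7.14% of 28 promoters. By gene, GATAA was in 16.7% and 29.4% of the lists' matched genes, against 18.6% of the genes read. GATAA thus stood in promoters of genes of both directions, and a match is a stretch of letters, not a shown binding site. The same count over all called genes is void, since 332 of the 427 and 128 of the 172 had an entry, under the 80% asked of a set.

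Genes of lymphoid recirculation and quiescence were higher in hashtags 5 and 6 in 15 of 20 members, all of which were read, and none was higher in hashtags 1 to 4. The median log2 ratio was -1.65. Ccr7, the receptor that guides T cells into lymph nodes and the splenic T cell zone, stood at 18.9, 17.7, 13.6 and 12.7 CPM in hashtags 1 to 4 and at 169 and 181 CPM in hashtags 5 and 6. The hashtags of each pool lay close together, and the pools differed 10.7-fold (log2 ratio -3.42, -3.97 to -2.89).

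The transcription factors of resting T cells followed. Id3, an inhibitor of E proteins, stood at 22.3, 25.8, 23.3 and 27.5 CPM against 205 and 136 CPM (log2 ratio -2.81, -3.28 to -2.35). The chromatin organiser Satb1 stood at 16.7, 16.1, 29.1 and 21.2 CPM against 125 and 124 CPM (-2.64, -3.17 to -2.11). Bach2, a repressor of effector genes, was lower in hashtags 1 to 4 by a log2 ratio of -2.25, Tcf7 by -1.80 and Lef1 by -1.63.

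Bcl2, which protects resting lymphocytes from death, stood at 67.9, 67.7, 105 and 106 CPM in hashtags 1 to 4 and at 323 and 416 CPM in hashtags 5 and 6 (log2 ratio -2.16, -2.43 to -1.89). S1pr1, the receptor for exit from lymphoid organs, was called at -1.17. Klf2, which drives S1pr1, was not called: hashtag 2 at 566 CPM lay above hashtags 5 and 6 at 510 and 522 CPM. The interleukin-7 receptor Il7r was on the other side of zero (0.65), with 411, 515, 557 and 597 CPM against 225 and 416 CPM, and hashtag 6 lay above hashtag 1. Foxp1 (-0.87), Gimap6 (-0.18) and Ly6c1 (0.29) were not called either.

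Immediate-early genes of the AP-1 and feedback programs were higher in hashtags 1 to 4 in 20 of 23 members read, of 25 listed, with a median log2 ratio of 2.78. Fos stood at 954, 2284, 908 and 1928 CPM against 44.5 and 51.3 CPM (4.93, 4.43 to 5.48), and hashtags 2 and 4 lay well above hashtags 1 and 3. Junb, its partner, was more even, at 3853, 4650, 3383 and 4763 CPM against 454 and 395 CPM (3.28, 3.11 to 3.46). Atf3, a stress-induced factor of the family, stood at 134, 261, 33.0 and 252 CPM against 8.89 and 3.02 CPM (4.80, 3.43 to 6.68). The phosphatase Dusp1 (3.73), Rgs2 (4.12) and Fosb (3.92) were also called. Rgs1 (0.33), Dusp2 (0.42) and Ier5 (0.60) were not.

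Among cytokines and effector molecules, 15 of 29 members were read, with 11 higher in hashtags 1 to 4, 2 higher in hashtags 5 and 6 and a median log2 ratio of 1.55. The suppressive cytokine gene Il10 stood at 185, 215, 134 and 258 CPM in hashtags 1 to 4 and at 20.8 and 15.1 CPM in hashtags 5 and 6 (3.45, 2.63 to 4.41). After thinning, Il10 was found in 12% (9.44 to 15.1) and 3.93% (1.6 to 7.93) of members, or 20.9% and 6.01% without thinning. Barcodes of other cell types had it in 3.12% after thinning (0.0791 to 16.2), an interval that holds both shares, and in 7.69% without. Furin, the protease that activates TGF-β, stood at 225, 555, 128 and 499 CPM against 20.8 and 18.1 CPM (4.12, 3.34 to 5.04), while Tgfb1 itself differed by 1.03 (0.68 to 1.39). Ccl4 had 576 against 4 UMIs (5.26, 3.90 to 7.14), and 22% of those in hashtags 1 to 4 came from 1 cell. In Ccl3, 39.8% came from 1 cell.

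Lymphotoxin beta (Ltb), which shapes lymphoid organs, went the other way, at 538, 415, 504 and 470 CPM against 1230 and 1008 CPM (log2 ratio -1.20, -1.33 to -1.07). Nt5e, the ectoenzyme CD73 that makes adenosine, stood at 14.5, 19.4, 3.88 and 16.9 CPM against 80 and 30.2 CPM (-1.99, -2.70 to -1.28), and hashtag 5 was the higher of its pool. Entpd1, the ectoenzyme CD39 upstream of it, was at 1.55 in the other direction (0.44 to 2.92), but hashtag 4 at 16.9 CPM lay below hashtag 5 at 17.8 CPM and it was not called. The T helper cytokine genes Il2, Il4, Il5, Il13, Il17a and Il21 were under the level limit.

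Chemokine receptors and adhesion molecules numbered 9 higher in hashtags 1 to 4 and none in hashtags 5 and 6, of 18 read and 24 listed, with a median log2 ratio of 0.99. Ccr2, a receptor for monocyte chemoattractants, stood at 425, 453, 401 and 419 CPM against 32.6 and 42.2 CPM (3.51, 2.94 to 4.15). Cxcr6, the receptor for CXCL16, stood at 604, 542, 561 and 573 CPM against 38.5 and 33.2 CPM (4.0, 3.42 to 4.65). Both were even over the hashtags of each pool. The retention receptor Cd69 (2.78) and the adhesion molecule Icam1 (3.19) were also called, whereas the integrin genes Itgb1 (0.00), Itgb2 (0.18), Itgal (-0.42) and Itga4 (0.30) were not.

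Cytokine receptors and their feedback inhibitors were mixed, with 6 of 22 read higher in hashtags 1 to 4, 2 higher in hashtags 5 and 6 and a median log2 ratio of 0.39. Besides Il1rl1 and Il2ra, the interleukin-10 receptor chain Il10ra (2.28), the interferon gamma receptor chain Ifngr1 (1.57), Cish (1.55) and Il18rap (1.08) were higher in hashtags 1 to 4. Both chains of the interleukin-6 receptor were higher in hashtags 5 and 6, Il6ra at 33.4, 29.0, 29.1 and 23.3 CPM against 97.8 and 84.5 CPM (-1.63) and Il6st at 24.5, 22.6, 21.3 and 19.0 CPM against 88.9 and 39.2 CPM (-1.52). The other interleukin-2 receptor chains, Il2rb (0.34) and Il2rg (0.43), were not called.

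Receptors of the TNF and inhibitory families had a median log2 ratio of 0.35, with 3 of 15 read higher in hashtags 1 to 4 and 2 in hashtags 5 and 6. Cd200r1, an inhibitory receptor, stood at 174, 168, 184 and 167 CPM against 23.7 and 15.1 CPM (3.16, 2.37 to 4.08), while the gene of its ligand, Cd200, stood at 13.4, 22.6, 17.5 and 16.9 CPM against 41.5 and 57.3 CPM (-1.52, -2.21 to -0.82). The receptor and the ligand thus lay on opposite sides. Tnfrsf1a, a receptor for TNF, was the other member higher in hashtags 5 and 6 (-1.07, -1.84 to -0.27). Pdcd1 (0.43), Cd28 (0.20) and Cd5 (0.02) were not called.

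Among effector transcription factors 6 of 17 read were higher in hashtags 1 to 4 and none in hashtags 5 and 6 (median log2 ratio 0.88). Id2, the counterpart of Id3, stood at 575, 516, 555 and 571 CPM against 133 and 130 CPM (2.08, 1.77 to 2.41), opposite to Id3. Prdm1, the effector Treg factor Blimp-1, stood at 52.3, 50, 71.8 and 67.7 CPM against 5.93 and 9.05 CPM (2.97, 1.72 to 4.62). The antigen receptor-induced factors Nr4a1 (3.0) and Nr4a2 (3.03), Zeb2 (3.59) and Irf4 (1.37) were also called. Maf (0.70), Tbx21 (0.92) and Stat3 (0.11) were not.

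Genes of galectins, S100 proteins and the cytoskeleton, which mark activated and memory T cells, were higher in hashtags 1 to 4 in 13 of 16 members, with a median log2 ratio of 1.85. S100a6 stood at 5848, 7031, 5925 and 7048 CPM against 516 and 543 CPM (3.59, 3.44 to 3.75). Lgals3 stood at 516, 568, 489 and 552 CPM against 41.5 and 69.4 CPM (3.26), and Lgals1, which encodes galectin-1, at 2175, 2184, 1926 and 2247 CPM against 368 and 591 CPM (2.16). Anxa2 (0.70), Emp3 (0.82) and Lsp1 (0.32) were under the 2-fold limit.

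Lipid handling genes were mixed, with 5 of 16 read higher in hashtags 1 to 4 and a median log2 ratio of 0.49. The lipid droplet genes Plin2, at 166, 237, 211 and 239 CPM against 14.8 and 33.2 CPM (3.11, 2.40 to 3.93), and Hilpda, at 253, 465, 198 and 317 CPM against 17.8 and 21.1 CPM (3.98, 3.19 to 4.89), were called. So was Dgat1, which makes triglyceride, with 241 against 4 UMIs (4.01, 2.63 to 5.89). The sterol synthesis gene Hmgcs1 (0.90) was not called, nor was Fasn (-0.17), which encodes fatty acid synthase. Fabp4, a fatty acid binding protein of adipocytes and endothelium, stood at 852 CPM in hashtag 2 and between 121 and 288 CPM in the others, and 53.0% of its UMIs in hashtags 1 to 4 came from 1 cell.

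Survival and p53 genes numbered 8 higher in hashtags 1 to 4 and 1, Bcl2, higher in hashtags 5 and 6, of 14 read (median log2 ratio 1.43). The kinase gene Pim1, induced by interleukin-2, stood at 1011, 1181, 1113 and 1079 CPM against 270 and 260 CPM (2.04, 1.82 to 2.27). Cdkn1a, the cell cycle inhibitor p21, stood at 121, 161, 67.9 and 190 CPM against 14.8 and 3.02 CPM (3.89, 2.76 to 5.35). The Bcl2 relatives Bcl2a1b (1.75) and Bcl2a1d (2.60) are near-identical copies whose reads may be split between them, and Mcl1 (0.14) and Bax (0.35) were not called.

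Interferon response genes leaned to hashtags 5 and 6, where 5 of 19 read were higher against 1 in hashtags 1 to 4, with a median log2 ratio of -0.70. The GTPase Iigp1 stood at 25.6, 50, 15.5 and 10.6 CPM against 169 and 124 CPM (-2.45), and 34.3% of its UMIs in hashtags 1 to 4 came from 1 cell. Rtp4 (-1.65), Ifi213 (-1.97) and Zbp1 (-1.19) were also called. Ly6a, the surface protein Sca-1, was the exception, at 912, 1045, 958 and 692 CPM against 305 and 293 CPM (1.61, 1.40 to 1.83).

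Of the circadian clock genes, 9 of 21 reached the level limit, 3 were higher in hashtags 1 to 4 and the median log2 ratio was 0.34. Clock, the partner of Arntl (whose values are given above), stood at 16.7, 22.6, 29.1 and 27.5 CPM against 29.6 and 6.04 CPM (0.34, -0.57 to 1.38).

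Per1, a repressor of the loop that is also an immediate-early gene, stood at 34.5, 38.7, 27.2 and 31.7 CPM against 20.8 and 9.05 CPM (log2 ratio 1.16, 0.21 to 2.28). Nfil3, a repressor shared with the tissue list, stood at 31.2, 40.3, 27.2 and 71.9 CPM against 8.89 and 6.04 CPM (2.43, 1.16 to 4.08). Rora, an activator of Arntl that is also in the tissue list, stood at 226, 252, 219 and 260 CPM against 71.1 and 24.1 CPM (2.31, 1.80 to 2.87). Dbp, a direct output of the clock, stood at 17.8, 21, 33.0 and 19.0 CPM against 11.9 and 33.2 CPM (-0.03, -0.88 to 0.90). The casein kinases Csnk1d (0.33) and Csnk1e (0.16) were not called, and Bhlhe40 (1.33) overlapped. Per2, Per3, Cry1, Cry2, Nr1d1, Nr1d2, Npas2, Tef, Hlf, Bhlhe41 and Ciart were under the level limit.

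Heat shock genes numbered 2 higher in hashtags 1 to 4 of 11 read (median log2 ratio 0.47), Hspa1a (3.60) and Hspa1b (1.43), which are near-identical copies. Hspa1a stood at 59.0, 300, 91.2 and 69.8 CPM against 14.8 and 6.04 CPM, and hashtag 2 stood apart. No gene of the 13 glycolysis genes read (median 0.48) or of the 13 proliferation genes read (median 0.30) was called. The pools overlapped widely in Mki67, a marker of cycling cells, which stood at 129, 87.1, 21.3 and 61.4 CPM in hashtags 1 to 4 and at 2.96 and 118 CPM in hashtags 5 and 6. None of the 87 ribosomal protein genes was called, at a median of -0.44.

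**Figure D3:**
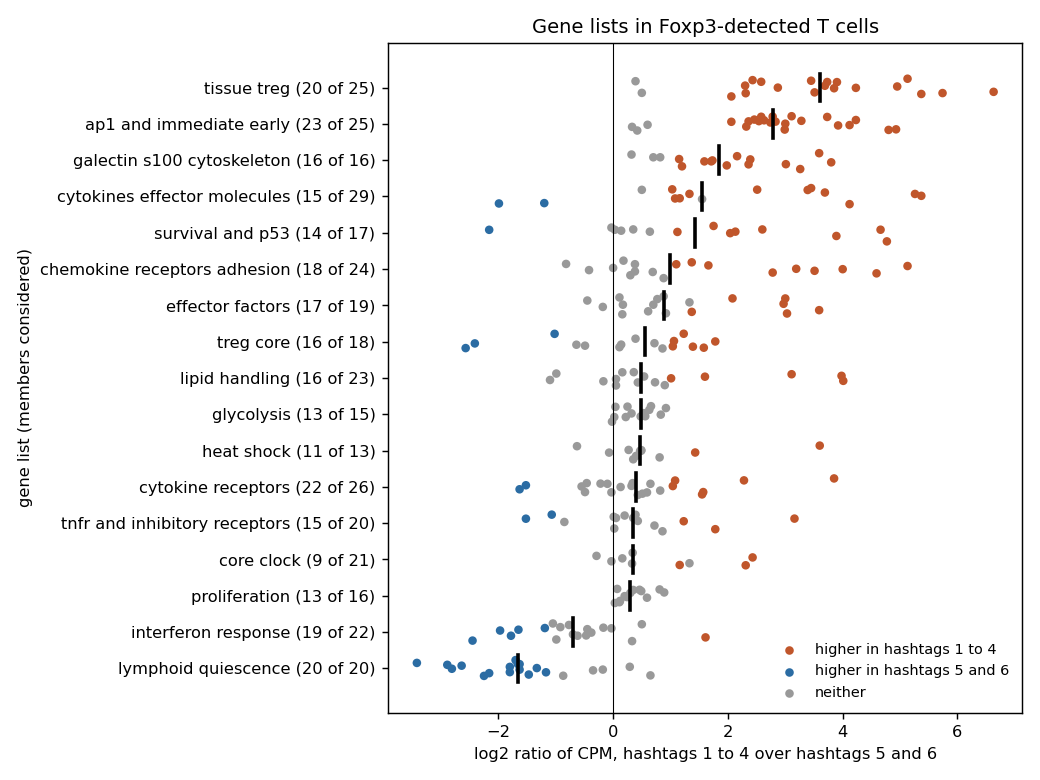
Log2 ratio of CPM, hashtags 1 to 4 over hashtags 5 and 6 (x axis), for each member read of 17 gene lists (y axis, with members read of members listed) in Foxp3-detected T cells; points are genes, coloured by call, and bars are list medians. Medians run from -1.65 in the lymphoid and quiescence list to 3.60 in the tissue Treg list.

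Over all genes at 50 CPM or more, the 15 leading genes of hashtags 1 to 4 were Cxcl2, AA467197, Ier3, Ltb4r1, Areg, Ccl4, Ccr3, Mgp, Fos, Atf3, Gadd45b, Dcn, Phlda1, Mmp9 and Fosl2. Ltb4r1, the leukotriene B4 receptor, stood at 394, 566, 481 and 512 CPM against 11.9 and 6.04 CPM (log2 ratio 5.73, 4.61 to 7.18). Ccr3, the eotaxin receptor, stood at 101, 121, 167 and 38.1 CPM against 5.93 and 0 CPM (5.17, 3.30 to 8.22). The extracellular matrix genes Mgp and Dcn do not describe the pool, since 383 of the 400 Mgp UMIs and 278 of the 370 Dcn UMIs came from 1 cell of hashtag 4 with 11703 UMIs. Mgp was at 0 in hashtags 5 and 6, so its 35.6-fold ratio rests on a floor of 3 counts set for the second pool and is no lower bound.

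The leading genes of hashtags 5 and 6 included Ccr7, Ift80, Actn1, Id3, BE692007, Satb1, Izumo1r, Ipcef1, Tbc1d4, Iigp1, Rflnb, Ctss, Bcl2 and Tesc, of which Ccr7, Id3, Satb1 and Bcl2 are in the lymphoid and quiescence list. Ift80, a gene of transport in cilia, stood at 13.4, 14.5, 15.5 and 10.6 CPM against 97.8 and 118 CPM (log2 ratio -2.99, -3.62 to -2.38). The actin crosslinker Actn1 stood at 14.5, 6.45, 19.4 and 10.6 CPM against 71.1 and 112 CPM (-2.84, -3.50 to -2.20). Ctss, the lysosomal protease cathepsin S, stood at 42.3, 66.1, 60.1 and 36.0 CPM against 237 and 220 CPM (-2.17, -2.53 to -1.83).

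The programs were also read cell by cell, after thinning each member to 1500 UMIs (548 and 178 members remained). Il1rl1 was found in 41.6% of members of hashtags 1 to 4 (exact binomial interval 37.4 to 45.9) and 5.06% of those of hashtags 5 and 6 (2.34 to 9.38), or 63.1% and 9.84% without thinning. In the barcodes of other cell types it was found in 3.12% (0.0791 to 16.2) after thinning, an interval that holds the share in hashtags 5 and 6. Ccr7 was found in 2.01% (1.01 to 3.56) and 22.5% (16.6 to 29.3), or 6.06% and 40.4% without thinning. In the other cell types it was found in 3.12% (0.0791 to 16.2) after thinning, an interval on 1 of 32 barcodes that holds the share in hashtags 1 to 4.

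Summed over the 25 tissue Treg genes, the median member had 47.6, 61.7, 42.2 and 57.0 UMIs per 10000 in hashtags 1 to 4 and 4.76 and 3.62 in hashtags 5 and 6. The lymphoid and quiescence list had medians of 24.5, 25.7, 24.6 and 24.3 against 51.9 and 54.3. The immediate-early list had medians of 174, 241, 135 and 223 against 29.1 and 26.9, the order of the hashtags 1 to 4 being that of Fos. The Treg core list had medians of 38.6 per 10000 in hashtags 1 to 4 and 29.1 in hashtags 5 and 6.

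The same ratio was taken in T cells with no Foxp3 UMI, 6267 in hashtags 1 to 4 and 6743 in hashtags 5 and 6, which share the hashtags but no cell with the members. At low depth many Tregs have no Foxp3 UMI, so these cells hold Tregs as well. Of 5423 genes read, 322 were higher in hashtags 1 to 4 (5.94%) and 64 in hashtags 5 and 6 (1.18%). Of the genes called in Foxp3-detected cells, 223 of 427 (52.2%) and 45 of 172 (26.2%) were also called there, which is 69.3% and 70.3% of the calls in Foxp3-undetected cells, and none was called in the opposite direction. The gene ratios in the larger groups have less counting error, and the differences between the ratios below were not tested.

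Tissue Treg genes had a median log2 ratio of 3.60 in detected and 3.02 in undetected cells, and Il1rl1 3.85 and 4.12. The immediate-early list had medians of 2.78 and 2.32, and 21 of its 23 members read were higher in hashtags 1 to 4 in undetected cells. Medians were 1.85 and 1.87 for the galectin and S100 list, 0.99 and 1.27 for chemokine receptors, and 1.43 and 0.69 for survival genes. These differences between the pools were thus also present in T cells with no Foxp3 UMI. For the lymphoid and quiescence list the medians were -1.65 and -0.87. Bcl2 was the widest gap there: its ratio was -2.16 in detected cells and 0.06 (226 and 216 CPM) in undetected cells. Ms4a4b (-1.66 and -0.33) and Klf3 (-1.33 and -0.16) had gaps of the same direction. The Treg core list had a median of 0.55 over 16 members read in detected cells and 1.21 over 12 in undetected cells. In that list Ikzf2 had a ratio of 0.11 in detected and 1.01 in undetected cells, Il2ra 1.04 and 2.01, and Izumo1r -2.57 and -1.53.

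**Figure D4:**
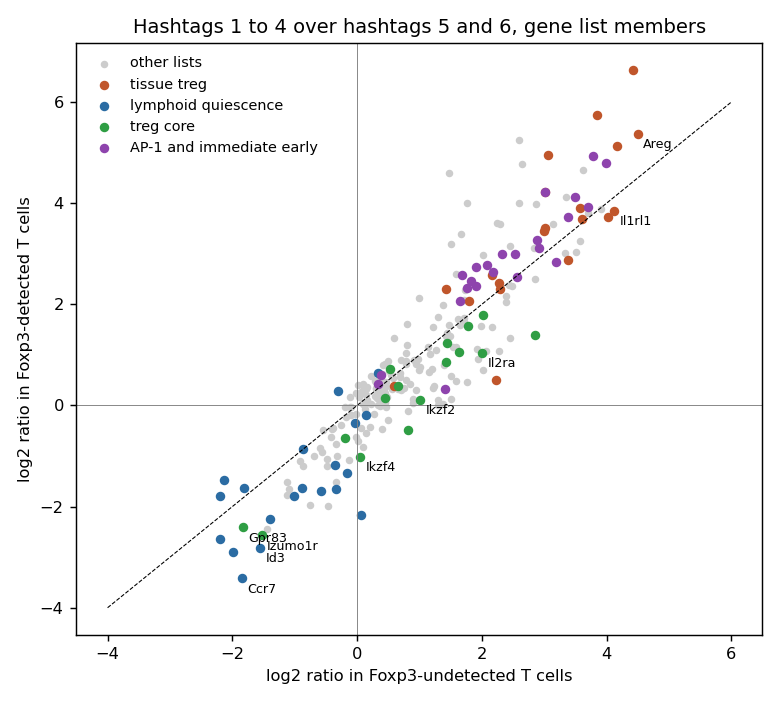
Log2 ratio of hashtags 1 to 4 over hashtags 5 and 6 in Foxp3-undetected T cells (x axis) and Foxp3-detected T cells (y axis) for genes of the 17 lists; the dashed line marks equal ratios. Il1rl1 lies near the line at 4.12 and 3.85, and Ccr7 below it at -1.84 and -3.42.

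Foxp3-detected cells were set against Foxp3-undetected cells, a comparison that the Foxp3 rule fixed. The sign was read within each hashtag, and the 2-fold limit on the sums over all 6 hashtags. Of 5524 genes, 83 were at least 2-fold higher in the detected cells by these sums with the same sign in all 6 hashtags (1.5%), Foxp3 by rule, and 38 lower (0.688%). Hashtags 1 to 4 gave 2506235 UMIs of detected and 21057967 of undetected cells, and hashtags 5 and 6 gave 668740 and 24655975. The summed ratio thus also carries the difference between the pools, and a gene can pass it while under 2-fold in a pool. The Treg core list gave 8 of the first kind: Il2ra, Ikzf2, Ikzf4, Ctla4, Tnfrsf18, Tnfrsf4, Tnfrsf9 and Capg. The list's median log2 ratio was 1.24 by the sums, 0.80 within hashtags 1 to 4 and 1.32 within hashtags 5 and 6. Capg stood at 1.31, 0.84 and 1.03 in the same order. Ikzf2 was higher in detected cells by a log2 ratio of 1.05 (0.98 to 1.11) in hashtags 1 to 4 and 1.95 (1.82 to 2.08) in hashtags 5 and 6. Ikzf4 was higher by 1.04 (0.71 to 1.37) and 2.12 (1.68 to 2.54). Members of both pools thus carried Treg genes that the rule had not used.

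Among tissue Treg genes 9 of 20 met this rule, among them Il1rl1, Areg, Klrg1, Gata3 and Il10. The list's median was 1.41 by the sums, but 0.89 within hashtags 1 to 4 and 0.50 within hashtags 5 and 6, both under 2-fold. Areg was at 2.08 by the sums, 1.37 (1.31 to 1.43) in hashtags 1 to 4 and 0.50 (-0.21 to 1.12) in hashtags 5 and 6. Il1rl1 was higher in detected cells by 1.12 (1.03 to 1.22) in hashtags 1 to 4 and by 1.40 (0.71 to 2.03) in hashtags 5 and 6, where it rested on 22 UMIs. Of the lymphoid and quiescence genes 7 of 20 were lower in detected cells by this rule and none was higher. This list's median was -0.98 by the sums, -0.98 within hashtags 1 to 4 and -0.22 within hashtags 5 and 6. Ccr7 was lower in detected cells of hashtags 1 to 4 (-1.85, -2.34 to -1.41) and close to level in hashtags 5 and 6 (-0.28, -0.55 to -0.01). Bcl2 was lower in detected cells in hashtags 1 to 4 (-1.45, -1.66 to -1.25) and higher in hashtags 5 and 6 (0.77, 0.58 to 0.96).

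RNA of B cell, macrophage, endothelial, stromal and erythroid markers was present in every hashtag, at levels that differed between hashtags. B cell markers summed to between 559 and 931 CPM except in hashtag 3 (16960 CPM), where 1 cell of 11460 UMIs held 6657 Igkc UMIs, and Igkc had a UMI in 550 of the 761 members. Macrophage and dendritic cell markers (10 of 11 detected, Itgax at 0) reached 1315 CPM in hashtag 2 and ranged from 38.8 to 498 CPM elsewhere. Stromal and adipocyte markers (7 of 8 detected, Plin1 at 0) summed to 1010 CPM in hashtag 2, 1555 CPM in hashtag 4 and 145 to 305 CPM elsewhere. Endothelial markers (7 of 7) ranged from 48.7 to 142 CPM, and the 5 erythroid markers stood at 6532 and 16668 CPM in hashtags 4 and 5 and from 122 to 331 CPM elsewhere. Neutrophil and mast cell markers (5 of 5) ranged from 0 to 192 CPM, and natural killer markers (4 of 6, Ncr1 and Klrb1c at 0) from 2.96 to 43.5 CPM. The lists of B cell, macrophage, endothelial, stromal and erythroid markers overlapped between the pools. The neutrophil and mast cell and natural killer lists were higher in each of hashtags 1 to 4, mostly through hashtag 2, and the CD8 T cell list, with Cd8a at 0, stood at 7.79 to 11.6 CPM against 14.8 and 18.1 CPM. The part of these cells in the gene ratios was not tested beyond the alternatives that follow. Leaving out the members with at least 5 UMIs of the B cell, macrophage, endothelial, stromal or erythroid markers, Igkc and the globin genes aside, a step chosen after seeing the data, left 659 members, with 442 genes higher in hashtags 1 to 4 and 191 in hashtags 5 and 6, and 356 and 143 of those were among the calls above. With every member of 2 or more UMIs of these markers out, Igkc and the globin genes counted, 99 cells remained. There the ratios of Ccr1, Il18rap, Il6ra, Irf4, Per1, Pmaip1 and Prdm1 changed sign, and with a tag share of 60% that of Ccl3 did. A pool at 0 was set to a floor of 3 counts, so a gene of few UMIs can change sign with no UMI in that pool. Ccr1 had 1 UMI in hashtags 5 and 6 over all members. Il6ra moved from below to above 0, and the other genes named moved from above to below. Whether the floor gave these signs was not tested.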

How the data were processed

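Members, pools and gene lists were chosen with earlier results of these data known. The authors deposited a matrix of UMI counts per gene and barcode and a matrix of counts per hashtag and barcode, from a single-cell 3′ v3.1 kit per the labels. Per the submitters' processing notes, Cell Ranger 6.0, Seurat 3 and mm10 were used, whereas the expression matrix's own header reads cellranger 4.0.0. The sources used here do not name the tool that counted the tags.

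Raw counts were summed per leading hashtag over members with Python 3.11.15, numpy 2.4.6, scipy 1.17.1 and pandas 2.3.3 (figures with matplotlib 3.10.9) and divided by the summed UMIs. Where several IDs shared a symbol, the ID with the largest sum was used. A gene was read at a mean of at least 20 CPM over the pools, and called higher at a ratio of at least 2 with no overlap between hashtags 1 to 4 and hashtags 5 and 6. For detected over undetected cells, the ratio had to reach 2 on the sums over all 6 hashtags, with the same sign in each hashtag. With 1 library and hashtags of unknown origin there is no replicate and no test. Intervals are exact Poisson, binomial or conditional ratio intervals at 95%, and a pool at 0 was set to a floor of 3 counts. In each of 17 lists the rule named up to 6 called members a direction, by ratio, and every clock gene. Over all genes it named the 15 with the largest ratio a direction at 50 CPM or more, leaving out predicted, ribosomal, antigen receptor variable and immunoglobulin genes. Other genes of the lists are given with their values to complete a list and were chosen after their values were seen. TMM scaling came from edgeR 4.0.16 in R 4.3.3. The planned reference of B-like barcodes held 7 cells, so 39 barcodes of other cell types and Foxp3-undetected T cells were added after the data were seen. Scripts were tested on simulated data. Some genes that the rule names, and results that need them, are not reported here.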

Additional observations from a re-analysis of the deposited data

Results flagged for a closer look

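Among 148 genes read over hashtags 1 to 4, 7 had a hashtag whose gap to the nearest of the others exceeded Dixon's 95% critical value for 4 values. For 4 draws from the same population, chance passes that value in about 5% of groups. Hashtags 1 to 4 are of unknown origin and no such draws, so the value served only as a limit for flagging and not as a test. Il2ra was high in hashtag 4 (489 CPM), and Hspa1a (300 CPM) and Ccl3 (127 CPM) in hashtag 2. Of the Ccl3 UMIs in hashtags 1 to 4, 39.8% came from 1 cell. Mgp (815 CPM) and Dcn (607 CPM) were high in hashtag 4, where 1 cell held 95.8% and 75.1% of the UMIs of all hashtags. S100a11 (1063 CPM) and S100a13 (380 CPM) were low in hashtag 3, and both were still above hashtags 5 and 6.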

How the results depend on the processing

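Over 2706 values of 147 single genes under alternatives, 2396 stayed within their counting interval and 9 changed sign, and none of 285 list medians did. Whether a list median moved was judged by the median of its members' counting bounds, a wider yardstick adopted after the alternatives were seen in place of the range over hashtags 1 to 4. The causes of the changes below were not tested unless the setting itself removes genes or cells.

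Genes higher in hashtags 1 to 4 and in hashtags 5 and 6 numbered 1005 and 576 with no level filter (over 3 UMIs in a pool) and 189 and 77 at 50 CPM. Those in hashtags 5 and 6 numbered 396 with ribosomal and mitochondrial genes out of the total, 417 in the 113 members with 2 or more Foxp3 UMIs, and 301 in the 99 members with under 2 UMIs of other cell types. Leaving out each hashtag gave 416 to 540 and 168 to 260, medians of 0.19 to 1.15 for the lipid list and 0.63 to 1.84 for the clock list. The 540 and 260 came without hashtag 6, and the 1.15 and 1.84 without hashtag 5. The Foxp3 share in hashtags 1 to 4 was 9.45% at a tag share of 95% and 50 counts, 9.5% at 1000 genes and 5% mitochondrial UMIs and 9.93% at a tag share of 60%, and thinning gave 4.47% and 1.47%.

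The galectin and S100 median was 1.67 without ribosomal and mitochondrial genes, 2.11 at a tag share of 95%, 2.29 with 2 Foxp3 UMIs, 2.08 without the tenth of cells with the most UMIs and 1.67 at a tag share of 60%. At 50 CPM the cytokine and lipid medians were 3.57 and 2.36. With 2 Foxp3 UMIs the lymphoid median was -1.12, the heat shock median 1.0 and Il18rap -0.11. In the 99 members the medians were 1.30 (Treg core), 2.49 (tissue Treg), 0.00 (effector factors), 1.73 (chemokine receptors), 1.33 (TNF receptors), 3.42 (galectins), 0.87 (heat shock) and 0.30 (survival). There Ccr1 was -0.36, Il18rap -0.25, Irf4 -0.25, Per1 -0.25, Pmaip1 -0.25 and Prdm1 -0.04, negative values that the floor of 3 counts for a second pool at 0 can produce. Il6ra was 0.81, a change to the positive side, and its source was not tested. At a tag share of 60%, chosen after seeing the data, the tissue Treg median was 2.61, the cytokine median 0.82, the immediate-early median 2.27 and Ccl3 -0.74. No paired analysis was possible because the hashtags carry no replicate numbers.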
